A study of Mus musculus with 653 samples.

Results

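Imprinted genes, which mammals express from only 1 of the parental alleles, were followed in single cells of the embryonic mouse liver. A list of 37 imprinted genes was looked up in a table of read counts over 54195 genes and 653 cells, and the 27 genes with at least 1 read in some cell were described across the sorted groups and across cell lineages. The cells came from Smart-seq2 libraries, which sample the whole length of a transcript in 1 cell. Embryos were sired by Lgr5-EGFP-IRES-creERT2 males kept on C57BL/6 and carried by MF1 females, so the reporter-knock-in cross was shared by every group. It puts GFP under Lgr5, a Wnt target and receptor of R-spondins. Livers were taken at E10.5 or E13.5. Cells were sorted either as bulk or as Lgr5-GFP+, in both cases through the study's gate for the hepatoblast surface antigen Liv2 without CD31 and CD45. Of the cells 31.1% were E10.5 bulk, 32.3% E10.5 Lgr5-GFP+, 24.3% E13.5 bulk and 12.3% (80 cells) E13.5 Lgr5-GFP+. The study describes several replicate experiments, with a batch difference between them, but the labels do not tie a cell to an experiment, animal or litter. Each group was therefore taken as 1 sample, no test between groups was possible and no p-value is given.

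Imprinting marks are laid down as DNA methylation in the germ line and are kept in somatic cells at control regions that govern clusters of neighbouring genes. Many imprinted genes act on growth before birth, and as a broad rule paternally expressed genes favour growth while maternally expressed genes restrain it. Many are abundant in the fetal liver and are silenced after birth. The counts did not separate the parental alleles, so each level below is the sum over both, and the parent named for a gene is background knowledge.

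Several of the genes are also hosts of microRNAs, short RNAs that pair with messenger RNAs through bases 2 to 8, the seed. In the RefSeq annotation (GRCm38.p6) 29 microRNA hairpins lay inside the spans of 8 listed genes, most of them in the chromosome 12 cluster, with 14 in Mirg, 7 in Rtl1 and 3 in Rian. All 29 hairpin genes were at 0 in every cell of the count table, so a level of a host transcript below says nothing of the mature microRNA. For each host that the results turn on, 1 mature sequence is shown, 5′ to 3′ with the seed in capitals, to identify what the host transcript carries. They are miR-675-5p of H19 (chr7:142577112-142577133, minus strand), miR-335-5p of Mest (chr6:30741314-30741336, plus), miR-770-5p of Meg3 (chr12:109563710-109563731, plus), miR-370-3p of Rian (chr12:109618305-109618326, plus), miR-410-3p of Mirg (chr12:109743764-109743784, plus) and miR-127-3p (chr12:109592888-109592909, plus), which lies opposite Rtl1.
mmu-miR-675-5p: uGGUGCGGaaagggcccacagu
mmu-miR-335-5p: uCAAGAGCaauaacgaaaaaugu
mmu-miR-770-5p: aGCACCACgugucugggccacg
mmu-miR-370-3p: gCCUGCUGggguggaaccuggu
mmu-miR-410-3p: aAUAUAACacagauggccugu
mmu-miR-127-3p: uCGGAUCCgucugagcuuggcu
Among the 56 mature sequences in these spans, 1 seed was shared, by a pair from Mirg (chr12:109735669-109735692 and chr12:109739132-109739152, both plus).
mmu-miR-453: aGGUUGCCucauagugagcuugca
mmu-miR-496a-5p: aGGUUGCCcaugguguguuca

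Dlk1 and Meg3 open the chromosome 12 cluster and were high in the same lineage, so the 250 bases before their annotated starts are printed from RefSeq (GRCm38.p6, plus strand), with each CG, the pair of bases that methylation marks, in capitals. The Dlk1 window was chr12:109452573-109452822 and held 8 CG. The window before the first Meg3 start was chr12:109540746-109540995 and held 10 CG.
Dlk1: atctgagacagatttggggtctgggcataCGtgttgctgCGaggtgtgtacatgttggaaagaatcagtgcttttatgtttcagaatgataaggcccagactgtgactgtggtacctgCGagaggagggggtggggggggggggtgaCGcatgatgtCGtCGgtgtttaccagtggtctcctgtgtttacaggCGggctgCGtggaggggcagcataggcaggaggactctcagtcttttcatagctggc
Meg3: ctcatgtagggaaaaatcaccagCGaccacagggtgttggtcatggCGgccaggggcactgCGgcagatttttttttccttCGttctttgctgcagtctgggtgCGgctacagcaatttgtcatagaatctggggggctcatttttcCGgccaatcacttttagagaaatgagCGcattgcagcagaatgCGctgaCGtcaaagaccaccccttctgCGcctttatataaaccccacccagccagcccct
The table held 44 such windows for 29 of the listed genes, and 22 of them had at least 10 CG, against 37.8% of 32851 windows over all genes. The letters TATAAA, searched on both strands, occurred in 20.5% of the listed genes' windows and in 12.4% of all windows. They occurred in the Meg3 window and not in the Dlk1 window. These are descriptions of sequence only.

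Depth was 463347 to 2279700 reads per cell with a median of 1192740, and group medians ran from 1092637 to 1260402. Lineages were set by reads of a marker gene, more than 10 for exactly 1 of Afp (alpha-fetoprotein, hepatoblasts), Klf1 (an erythroid transcription factor), Pdgfra (mesenchyme) and Pax3 (muscle progenitors migrating from the somites). This gave 61 Afp+ cells, 160 Klf1+ cells (24.5% of all), Pdgfra+ cells that made up 22.5% of all, 30 Pax3+ cells, 13 cells with 2 or more markers and 242 with none. Cells within 6 to 15 reads of their marker numbered 1 for Afp, 11 for Klf1, 7 for Pdgfra and 2 for Pax3. The hepatoblast label given to all cells was not borne out by the markers of most of them. Of the Afp+ cells 53 were E10.5 Lgr5-GFP+, 6 were E10.5 bulk, 2 were E13.5 Lgr5-GFP+ and 0 were E13.5 bulk, where 78.6% of cells were Klf1+. The summed level of 8 hepatoblast markers was 16616 reads per 1000000 reads (RPM) in Afp+ cells and 10.02 RPM in Klf1+ cells, and albumin exceeded 10 reads in 50 of 61 Afp+ cells. The platelet gene Pf4 reached 1341 RPM in Pax3+ cells, from 5 of 30 cells, and the calls that changed without Pf4 cells are listed with the alternative settings. Each of the 5 library pools held cells of every group. Of 365 index pairs 230 were used in more than 1 pool, none marked more than 1 cell within a pool, and no 2 cells had identical counts.

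Whether an imprinted gene had reads moved with the overlap of its span with other genes. The overlap setting of the counting is not given in the sources used here, and its part in the zeros was not tested. The 10 genes listed at 0 in all 653 cells were Igf2, Kcnq1ot1, Ndn, Magel2, Mkrn3, Snurf, Nnat, Zrsr1, Nap1l5 and Peg13. By the GENCODE annotation (GRCm38), 9 of them had no base outside the span of another gene and Igf2, the fetal growth factor, had 3. Kcnq1ot1 lay within Kcnq1, Ndn, Magel2 and Mkrn3 within Gm32061, Nnat within Blcap, Nap1l5 within Herc3 and Peg13 within Trappc9. Every one of the 27 genes with reads had at least 1606 unshared bases. The same split held over all genes, since 99.5% of 12780 genes without an unshared base were at 0, against 31.6% of 41262 genes with at least 1, and 58 genes without an unshared base had reads. A listed 0 therefore cannot be read as silence. For Snrpn, which had reads, most exonic bases also lay within the spans of other genes, so its level is not read as low expression. Among genes with reads the fewest unshared bases were those of Phlda2 (1606) and Cdkn1c (1820). The fewest reads were those of Slc22a18, an organic cation transporter with 842 reads in 15 cells, and Snrpn, a splicing-factor subunit with 1374 reads in 291 cells. The Nextera kit does not mark strand, so a read where a gene and its antisense partner overlap cannot be assigned to either. Since nearly all genes without an unshared base were at 0, such reads may be missing from the levels of both. This touches Igf2r and Airn, of whose spans 67.5% and 48.4% were unshared, and also Gnas (55.9%), Ube3a (56.9%) and Cdkn1c (67.1%).

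**Figure D1:**
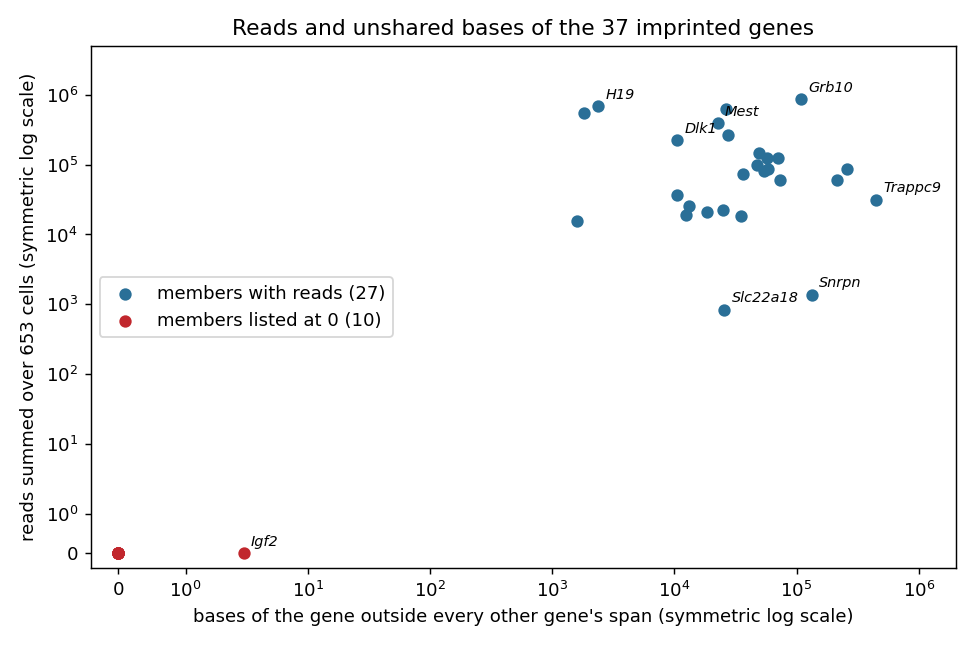
Reads in all 653 cells (vertical, log scale) against bases outside every other gene's span (horizontal, log scale) for the 37 listed imprinted genes, 1 point a gene. The 10 genes at 0 had 0 to 3 unshared bases, and the 27 with reads had at least 1606.

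The imprinted genes took about 1% of the reads of Afp+ cells and far less of those of Klf1+ cells. The 27 genes summed to 9926 RPM (0.993% of reads) in Afp+ cells, 8131 RPM (0.813%) in Pdgfra+ cells, 6609 RPM (0.661%) in Pax3+ cells and 884 RPM (0.0884%) in Klf1+ cells. By pool, over pools with at least 5 cells of the lineage, the sum lay at 9237 to 10411 RPM in Afp+, 7026 to 8825 in Pdgfra+, 5857 to 8484 in Pax3+ and 621 to 1635 in Klf1+ cells. The Klf1+ pools lay below all others and did not overlap them. In single cells the sum ran from 492 to 24173 RPM in Afp+ cells with a median of 9026, and from 14.6 to 14324 RPM in Klf1+ cells with a median of 673. The median cell had more than 10 reads for 12 of the genes if Afp+, 15 if Pdgfra+ or Pax3+, and 3 if Klf1+. Depth moved little with this, since the median was 1256109 reads in Afp+, 1177882 in Pdgfra+, 1209881 in Pax3+ and 1094182 in Klf1+ cells.

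**Figure D2:**
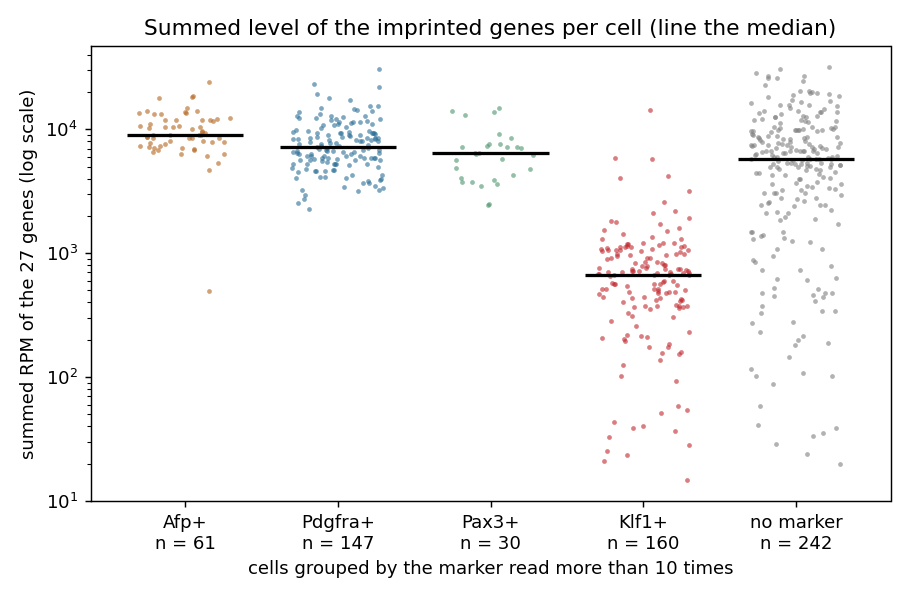
Summed RPM of the 27 imprinted genes in each cell (vertical, log scale) for cells grouped by marker (horizontal), 1 point a cell and a line at the median. The Klf1+ cells lay lowest, around a median of 673 RPM, and the 242 cells with no marker covered the range of all lineages.

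The sums by parental class differed between lineages, but a few genes carried them. The 10 maternally expressed genes with reads made up 4576 RPM of the Afp+ sum, 2942 RPM of the Pdgfra+ sum and 2724 RPM of the Pax3+ sum. The 11 paternally expressed genes made up 2523, 3759 and 2586 RPM. Of the maternal Afp+ sum H19 held 1721, Meg3 1108 and Cdkn1c 823 RPM. Of the paternal Pdgfra+ sum Peg3 held 1644 and Mest 817 RPM. In Klf1+ cells the classes fell to 75.6 and 86.6 RPM, and the 6 genes whose parent depends on tissue or isoform, Grb10 among them, held most of the remaining reads. Of the 25 genes with at least 5 RPM in some lineage, 14 were highest in Afp+ cells (7 of 9 maternal and 3 of 10 paternal ones), 7 in Pdgfra+, 4 in Pax3+ and 0 in Klf1+ cells. The 7 maternal ones include the chromosome 12 neighbours Meg3, Rian and Mirg. Paternal Dlk1 and Rtl1 of the same cluster were highest there too, so no pattern by parent is read from these counts. Over 12609 genes the highest level lay in Afp+ cells for 23.3%, in Pdgfra+ for 28.9%, in Pax3+ for 22.1% and in Klf1+ cells for 25.6%, so the Pdgfra+ count lay near the background. Klf1+ cells held the lowest level for 32.4% of all genes, and 22 of the 25 imprinted genes were lowest in Klf1+ cells.

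To name the genes set apart in a lineage, a gene was called where its RPM differed at least 2-fold from each other lineage, reached 5 RPM, and kept its direction in every pool with at least 5 cells of both. By this rule 6 imprinted genes were highest in Afp+ cells, namely Dlk1, Meg3, Rian, Mirg, Rtl1 and Grb10, where 3.60% of all genes tested were called. In Pdgfra+ cells 1 was called, Peg3 (4.10% of all genes). In Klf1+ cells the count was 0 (3.40%) and in Pax3+ cells 0 (1.36%). As many as 17 of the 25 were lowest in Klf1+ cells, where 5.22% of all genes were. None was called lowest in Afp+ (0.983%), Pdgfra+ (0.317%) or Pax3+ cells (1.92%). Among E10.5 cells alone, which removes the difference in stage, the same 6 genes were called in Afp+ cells (3.62%) and 15 of 26 were lowest in Klf1+ cells (6.03%), with 0 highest there (4.81%). There Plagl1 joined Peg3 in Pdgfra+ cells (5.09%), and Asb4, a ubiquitin-ligase adaptor, was called in Pax3+ cells (2.10%).

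**Figure D3:**
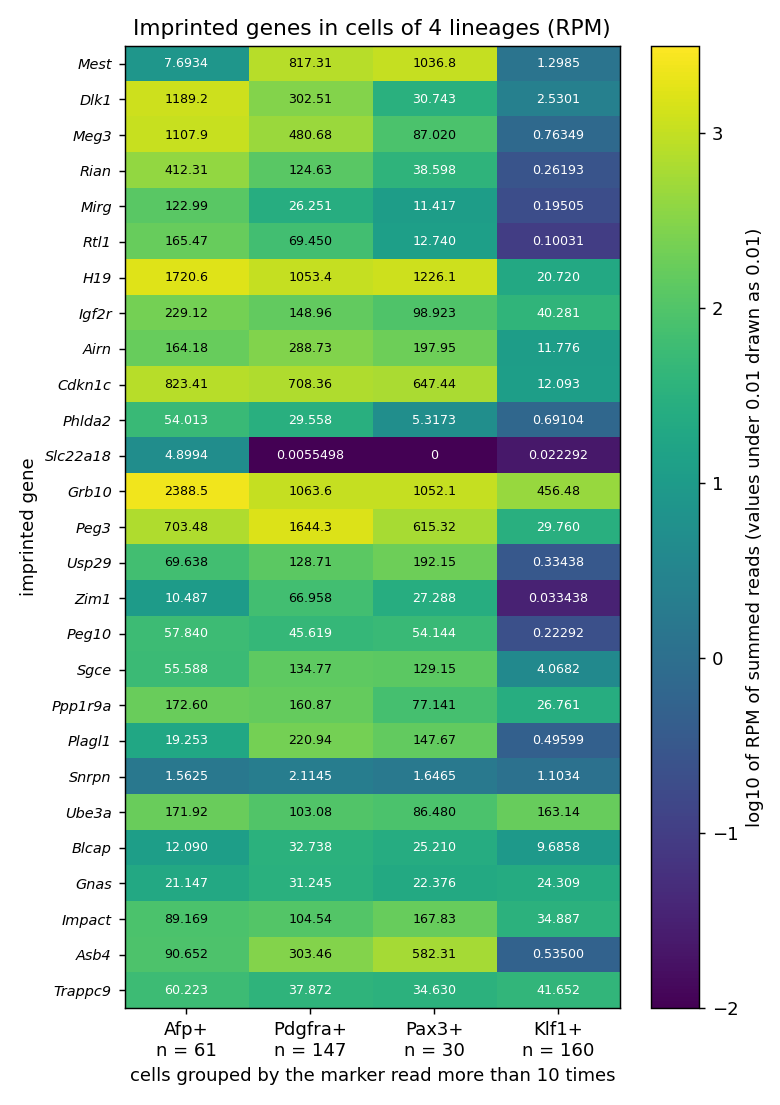
Heat map of RPM (colour, log scale) for the 27 imprinted genes with reads (rows) in Afp+, Pdgfra+, Pax3+ and Klf1+ cells (columns), from summed reads of each lineage. Dark colours mark low values. The chromosome 12 genes were strongest in Afp+ cells, Mest and Plagl1 were weak there, and most genes were darkest in Klf1+ cells.

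The 5 listed genes of the chromosome 12 cluster were highest in Afp+ cells, and Pdgfra+ cells held the next highest level of each. Dlk1 encodes a transmembrane protein related to Notch ligands, is paternally expressed and is a known surface marker of hepatoblasts. It stood at 1189 RPM in Afp+, 303 in Pdgfra+, 30.7 in Pax3+ and 2.53 in Klf1+ cells. In single Afp+ cells it ran from 0.807 to 3942 RPM with a median of 977, and 60 of 61 cells (98.4%) had more than 10 reads. The median was 114.5 RPM in Pdgfra+ cells, and the ranges over cells overlapped, whereas the pools did not, at 536 to 1556 against 189.2 to 440.1 RPM. Meg3, the maternally expressed long non-coding RNA of the cluster, stood at 1108, 481, 87.02 and 0.763 RPM in the same order. Its pools lay at 992 to 1324 RPM in Afp+ and 334 to 605 RPM in Pdgfra+ cells, which did not overlap either. Rian, which hosts small nucleolar RNAs, followed with 412, 124.6, 38.6 and 0.262 RPM. Mirg, a microRNA host, had 122.99, 26.3, 11.4 and 0.195 RPM, and 91.02% of its Pax3+ reads came from 1 cell. Rtl1, a paternally expressed gene derived from a retrotransposon and needed in placenta and fetal muscle, had 165.5, 69.5, 12.7 and 0.1003 RPM. In Klf1+ cells 0 of 160 cells had more than 10 Rtl1 reads, where 3 cells would be 1.88% and the exact 95% upper limit was 2.28%. The 5 listed genes of the cluster thus lay in 1 order of lineages, whichever parent they are read from. They summed to 2998 RPM in Afp+, 1004 in Pdgfra+, 180.5 in Pax3+ and 3.85 in Klf1+ cells.

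Grb10, an adaptor that dampens insulin and IGF receptor signalling, was the gene most widely detected. It stood at 2388 RPM in Afp+, 1064 in Pdgfra+, 1052 in Pax3+ and 456 in Klf1+ cells, and exceeded 10 reads in 96.7% of Afp+, 97.3% of Pdgfra+, 100% of Pax3+ and 80.6% of Klf1+ cells. Its excess in Afp+ cells was 1.17 on the log2 scale over Pdgfra+ cells, with pools at 0.89 to 1.11, close to the 2-fold limit. The value over all pools thus lay above that of each pool. Pool 2 held 33 Afp+ and 23 Pdgfra+ cells. Grb10 was also high there in Klf1+ cells, at 1156 RPM against 309.5 to 347.5 RPM in the other pools. The part of pool makeup in this excess was not tested. Without pool 2, which held 33 of the 61 Afp+ cells, Grb10 lost the call while the other 5 kept it. On a scale per kilobase of exon (RPKM), Grb10 had the highest value of the genes in Klf1+ cells at 50.2. Whether reads in introns were counted is not given in the sources used here. The zeros followed whole gene spans, so this scale may not order genes reliably.

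Mest and Plagl1 had the reverse order between Afp+ and Pdgfra+ cells. Mest, a paternally expressed hydrolase-like protein known from mesoderm, stood at 7.69 RPM in Afp+ cells against 817 in Pdgfra+ and 1037 in Pax3+ cells. Only 5 of 61 Afp+ cells (8.20%) had more than 10 reads, against 80.3% of Pdgfra+ cells and 27 of 30 Pax3+ cells, and 38.6% of the Afp+ reads came from 1 cell. The pools lay at 0.352 to 15.9 RPM in Afp+ and 375 to 1233 RPM in Pdgfra+ cells, far apart. Plagl1, a paternally expressed zinc-finger factor, had 19.3 RPM in Afp+, 221 in Pdgfra+ and 147.7 in Pax3+ cells. It was present in a subset, with 61 Pdgfra+ cells (41.5%) above 10 reads and a median cell of 1.75 RPM. In Afp+ cells 77.6% of its reads came from 1 cell, so the typical Afp+ cell was lower than the sum shows.

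Set directly against Pdgfra+ cells, Afp+ cells were higher in 6 of 25 imprinted genes (8.53% of all genes) and lower in 5 (16.4%). The higher ones were again Mirg, Dlk1, Rian, Rtl1, Meg3 and Grb10. The lower ones were Mest, Plagl1, Asb4, Sgce and Peg3. All of the lower genes but Asb4 are known to be paternally expressed, while the higher ones include both parents. The lower count lay near the share over all genes, so no pattern by parent is read from it. Sgce, an epsilon-sarcoglycan, had 55.6 against 134.8 RPM and its pools differed by -1.38 to -0.01 on the log2 scale, so 1 pool was level. Peg3, a zinc-finger protein that restrains cell growth in culture and shapes maternal behaviour, had 703.5 RPM in Afp+ cells, ranging by pool from 428 to 750.1. It had 1644 RPM in Pdgfra+ cells, where pools reached from 1012 to 2175, with no overlap. Within the E10.5 Lgr5-GFP+ sort alone 6 of 26 genes were higher (9.85%) and 4 lower (13.4%). There Dlk1 stood at 1299 against 235 RPM and Mest at 8.37 against 749.7 RPM, and H19 (1787 against 815 RPM) took the place of Rtl1, whose log2 difference was 0.98.

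**Figure D4:**
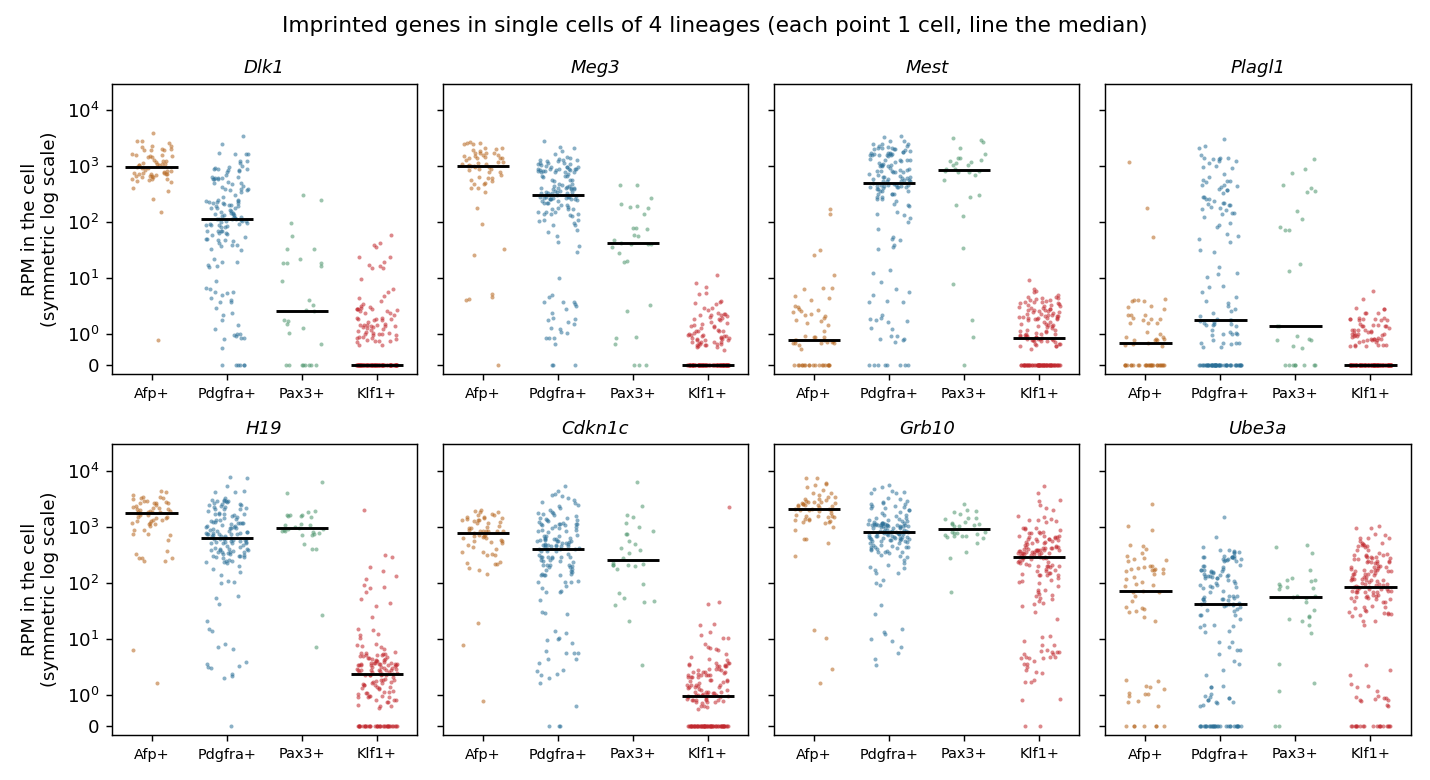
RPM of 8 imprinted genes in single cells (vertical, symmetric log scale) of the Afp+, Pdgfra+, Pax3+ and Klf1+ lineages (horizontal), 1 point a cell and a line at the median. Dlk1 and Meg3 medians were 977 and 1010.0 RPM in Afp+ cells and 0 in Klf1+ cells, whereas Ube3a medians lay between 42.1 and 85.4 RPM in every lineage.

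Of the Pax3+ cells 73.3% also had more than 10 reads of the muscle-progenitor gene Lbx1. They were lower than Pdgfra+ cells in most of the listed genes of the chromosome 12 cluster and in genes outside it. Against Pdgfra+ cells 0 imprinted genes were higher (5.26% of all genes) and 8 were lower (15.8%), namely Dlk1, Meg3, Rian and Rtl1 of the cluster and Phlda2, Peg3, Zim1 and Ppp1r9a. Dlk1 differed most, at 30.7 against 303 RPM. Phlda2, a maternally expressed brake on placental growth, had 5.32 against 29.6 RPM, but only 3 Pax3+ cells had more than 10 reads. Against Afp+ cells the Pax3+ cells were lower in 8 genes (13.6% of all genes higher in Afp+) and higher in 2, Mest and Plagl1 (11.5%). Asb4 reached 582 RPM in Pax3+ cells against 303 in Pdgfra+ and 90.7 in Afp+ cells, short of the 2-fold limit over Pdgfra+ cells. Slc22a18 had 0 reads in the 30 Pax3+ cells, where 3 reads would be 0.0810 RPM.

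In erythroid cells most imprinted genes were at their lowest level of the 4 lineages. Against Pdgfra+ cells Klf1+ cells were lower in 20 of 25 genes (24.5% of all genes) and higher in 0 (10.4%), with a median log2 difference of -5.79 against -0.25 over all genes. Against Afp+ cells they were lower in 18 (16.9%) and higher in 0 (12.2%), with a median of -5.28 against -0.04. H19, a maternally expressed non-coding RNA, had 1721 RPM in Afp+, 1053 in Pdgfra+, 1226 in Pax3+ and 20.7 in Klf1+ cells, and 41.1% of the Klf1+ reads came from 1 cell. Cdkn1c, a maternally expressed inhibitor of cyclin-dependent kinases, had 823, 708, 647 and 12.1 RPM, with 80.6% of the Klf1+ reads from 1 cell. Markers of other cells give the scale of such low values. The 7 mesenchyme markers summed to 24.1 RPM in Klf1+ cells, 0.550% of their 4381 RPM in Pdgfra+ cells, and Mest and Meg3 both stood at 0.159% of their Pdgfra+ level, Rtl1 at 0.144% and Dlk1 at 0.836%. The part of reads from other cells in these low levels was not tested.

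Among the imprinted genes for which Klf1+ cells were not called lowest were Ube3a, Gnas, Trappc9 and Blcap. Ube3a, the ubiquitin ligase whose paternal allele is silent in neurons only, stood at 171.9 RPM in Afp+, 163.1 in Klf1+, 103.1 in Pdgfra+ and 86.5 in Pax3+ cells, and exceeded 10 reads in 77.5% of Klf1+ cells. Gnas, the stimulatory G protein subunit, had 21.1, 24.3, 31.2 and 22.4 RPM in that order, and Trappc9, a vesicle-tethering subunit, had 60.2, 41.7, 37.9 and 34.6 RPM. Blcap had 12.1, 9.69, 32.7 and 25.2 RPM. Blcap was lowest in Klf1+ cells, at 29.6% of its Pdgfra+ level. For these 4 genes the pools overlapped in at least 1 pair of lineages. All 4 are imprinted in particular tissues or isoforms. Grb10 and Ppp1r9a of the same class were called lowest in Klf1+ cells. Mest, Igf2r, Phlda2 and Plagl1, classed as paternal or maternal, were not called, although their level was lowest there. For Mest, Phlda2 and Plagl1 the call failed where an Afp+ pool was near 0. In pool 4 Mest stood at 0.352 RPM in Afp+ and 1.03 RPM in Klf1+ cells. Of the 25 genes, Ube3a, Gnas and Trappc9 alone were not lowest by level in Klf1+ cells. All of these are of the class that depends on tissue or isoform. A pattern by class was not tested.

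The remaining genes with reads are given by cluster, in the order Afp+, Pdgfra+, Pax3+ and Klf1+ cells. Igf2r, the maternally expressed receptor that clears IGF2, had 229 RPM in Afp+, 148.96 in Pdgfra+, 98.9 in Pax3+ and 40.3 in Klf1+ cells, and 43.1% of the Klf1+ reads came from 1 cell. Its antisense transcript Airn, which silences the paternal Igf2r allele, ran in another order with 164.2, 289, 197.95 and 11.8 RPM. Usp29, next to Peg3, had 69.6, 128.7, 192.2 and 0.334 RPM, and Zim1 in the same cluster 10.49, 66.96, 27.3 and 0.0334 RPM. Of the chromosome 6 genes, Peg10, a retrotransposon-derived placental gene, had 57.8, 45.6, 54.1 and 0.223 RPM. Ppp1r9a, an actin-binding regulator of protein phosphatase, had 172.6, 160.9, 77.1 and 26.8 RPM. Impact, a regulator of translation under stress, had 89.2, 104.5, 167.8 and 34.9 RPM. Snrpn stayed between 1.10 and 2.11 RPM throughout, below the 5 RPM limit.

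Per kilobase of exon, with the limit given for Grb10, H19 had the highest value of the genes in Afp+ (699 RPKM), Pdgfra+ (428) and Pax3+ cells (498). Cdkn1c followed at 404, 347 and 318 RPKM. When only exonic bases outside other genes were counted as length, Cdkn1c overtook H19 in Pdgfra+ cells (612 against 471) and Pax3+ cells (559.6 against 549). In Afp+ cells H19 stayed first, at 769.9 against 711.7.

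Between cells of 1 lineage the genes were mostly weakly correlated. Over the 231 gene pairs read in at least 50% of Pdgfra+ cells the median Spearman correlation of RPM was 0.13, and the highest was that of the neighbours Dlk1 and Meg3 at 0.50. It was also the highest within E10.5 bulk (0.50, n = 75) and within E10.5 Lgr5-GFP+ Pdgfra+ cells (0.57, n = 64). In Afp+ cells (n = 61) the same pair stood at -0.06 with a median of 0.09 over 190 pairs, and the highest was Rian with Mirg at 0.42. Within the 53 Afp+ cells of the E10.5 Lgr5-GFP+ sort the highest was Usp29 with Asb4 at 0.43. Igf2r and its antisense Airn stood at 0.22 in Afp+ and 0.11 in Pdgfra+ cells. Cells of 1 library pool share depth and capture, and these values are descriptions.

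By stage the bulk sort held far less of these transcripts at E13.5 than at E10.5, with sums of 1195 and 6503 RPM, whereas the Lgr5-GFP+ sort held 9355 and 7601 RPM. In bulk cells 20 of 25 imprinted genes were lower at E13.5 than at E10.5 (16.4% of all genes) and 0 were higher (8.02%), with a median log2 difference of -3.15 against -0.20 over all genes. Mest stood at 9.90 against 633 RPM, H19 at 62.3 against 942, Rian at 0.525 against 99.2 and Rtl1 at 0.0959 against 49.7 RPM. No pool of these 4 genes overlapped between stages. The 5 genes not called were Ube3a (185.7 against 97.4 RPM), Trappc9, Grb10 (534 against 993 RPM), Gnas and Blcap. The makeup of the sort moved with this, since Klf1+ cells were 15.8% of bulk cells at E10.5 and 78.6% at E13.5, Pdgfra+ cells were 75 and 1 in number, and the 8 erythroid markers summed to 462 and 6833 RPM. Fewer cells of a type and less RNA per cell cannot be told apart in such sums. For 13 of the 25 genes at least 50% of the E13.5 bulk reads came from 1 cell, up to 97.5% for Usp29, 96.5% for Phlda2 and 93.4% for Plagl1.

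Within Klf1+ bulk cells, where makeup is held closer, 13 imprinted genes could be compared by stage. Airn (6.29 against 31.9 RPM), Sgce (2.02 against 11.6 RPM) and Cdkn1c (2.16 against 47.8 RPM) were lower at E13.5 (7.35% of all genes) and 0 were higher (7.66%). For Cdkn1c 93.4% of the E10.5 reads came from 1 cell, and the call was lost without pool 1. Grb10 stood at 454 RPM at E13.5 and 484 RPM at E10.5, with pools from -0.33 to 0.86 on the log2 scale, and Ube3a at 160.8 and 155.7 RPM, with pools from -0.76 to 0.38.

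In the Lgr5-GFP+ sort only Plagl1 was higher at E13.5 (6.93% of all genes), at 606 against 85.1 RPM. By pool it stood at 690.1, 1032, 264, 398 and 382 RPM at E13.5 and at 51.3, 64.9, 49.8, 166.1 and 102.1 RPM at E10.5, so the stages did not overlap. More than 10 reads were found in 42 of 80 cells (52.5%, exact 95% interval 41.02 to 63.8) at E13.5 and 64 cells (30.3%, 24.2 to 37.02) at E10.5. Such intervals cover counting error only. Meg3 (251 against 525 RPM) and Phlda2 (6.40 against 42.8 RPM) were lower (9.48% of all genes). With 1 higher and 2 lower of 25 genes, both counts lay near the shares over all genes. They are not read as a result about imprinted genes as a set. Meg3 lost its call without Pf4 cells, and 74.4% of the E13.5 Phlda2 reads came from 1 cell. Cdkn1c stood at 2026 against 656 RPM, but its E13.5 pools split into 3813 and 3636 RPM in pools 1 and 2 and 339, 872 and 550.4 RPM in pools 3 to 5, and it was not called. Makeup moved here too, with 53 Afp+ cells at E10.5 and 2 at E13.5, and with endothelial markers at 39.7 and 809.8 RPM, megakaryocyte markers at 339 and 2049 RPM and mesenchyme markers at 2036 and 3783 RPM. Among Lgr5-GFP+ cells with no lineage marker Plagl1 was again higher at E13.5, at 601 against 91.2 RPM, as was Mirg at 38.5 against 6.30 RPM (2.39% of all genes), and 0 imprinted genes were lower (6.94%). Of those E13.5 Mirg reads 32.9% came from 1 cell. Makeup was not held fixed in these cells. Between E10.5 and E13.5 their endothelial markers stood at 106.1 and 998.9 RPM and mesenchyme markers at 1160 and 3179.7 RPM. Leukocyte markers stood at 2.17 and 458 RPM.

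**Figure D5:**
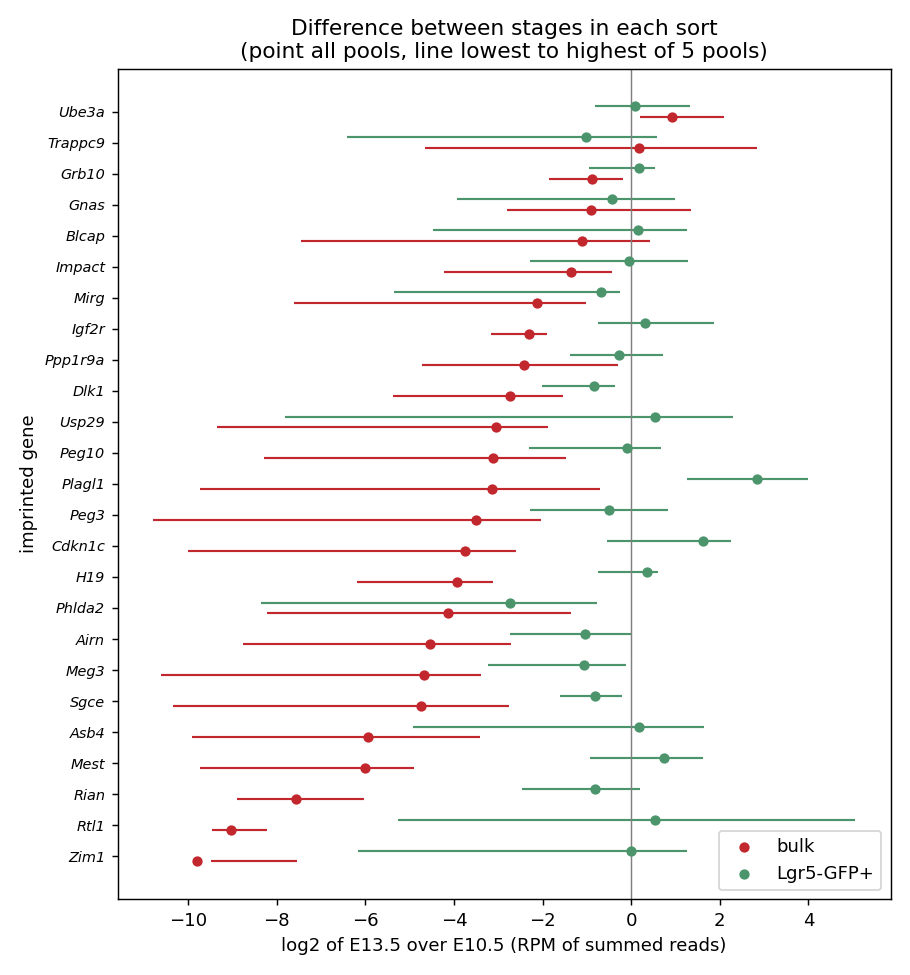
Log2 ratio of RPM at E13.5 over E10.5 (horizontal) for 25 imprinted genes (vertical), in bulk (red) and Lgr5-GFP+ cells (green), with a point for all pools and a line from the lowest to the highest of 5 pools, where a pool with 0 reads is set at 3 reads. Most red points lay below -2, most green points lay near 0, and Plagl1 stood at -3.15 and 2.83.

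Between the sorts at E10.5 few imprinted genes passed the limit. Phlda2 was higher in Lgr5-GFP+ than in bulk cells, 42.8 against 13.9 RPM (2.66% of all genes), and 0 genes were lower (3.0%). The median log2 difference was 0.26 against -0.01 over all genes. Within E10.5 Pdgfra+ cells Trappc9 was higher in Lgr5-GFP+ cells, 59.2 against 21.2 RPM (4.53%), with 36.97% of those reads from 1 cell, and 0 genes were lower (1.26%). Dlk1 stood at 486 against 251 RPM between the sorts and at 235 against 278 RPM within Pdgfra+ cells, while Afp+ cells made up 25.1% of Lgr5-GFP+ and 2.96% of bulk cells. At E13.5, with the same bulk cells as in the comparison by stage, 19 of 25 genes were higher in Lgr5-GFP+ cells (17.4%) and 0 lower (9.82%). Mest stood at 934 against 9.90 RPM, Cdkn1c at 2026 against 50.1 RPM and Plagl1 at 606 against 18.5 RPM. Makeup moved with this, since Klf1+ cells were 3.75% of Lgr5-GFP+ and 78.6% of bulk cells, and erythroid markers summed to 1346 and 6833 RPM, mesenchyme markers to 3783 and 100.6 RPM, endothelial markers to 809.8 and 25.5 RPM and megakaryocyte markers to 2049 and 41.9 RPM. Without Pf4 cells 17 of the 19 kept their call, Impact and Ppp1r9a lost it, and Peg10 and Phlda2 gained it.

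The same rule was applied to related genes. Of 45 other imprinted genes 25 were measured in bulk by stage, and 5 were lower, led by Cobl and Ano1 (16.4% of all genes), and 3 higher, led by Htr2a and Slc22a3 (8.02%), near the background. Across lineages 2 of 32 were called highest in Afp+ cells, Ascl2 and Tfpi2 (3.60% of all genes), 2 in Pdgfra+ cells, Dcn and Ano1 (4.10%), and 1 in Klf1+ cells, Tspan32 (3.40%). Called lowest were Osbpl5 and Qpct in Klf1+ cells (5.22%) and Peg12 in Afp+ cells (0.983%). Of 13 measured genes that act on DNA methylation or imprints, such as DNA methyltransferases, Tet enzymes and zinc-finger guides, 3 were lower in E13.5 bulk cells (16.4% of all genes). Zfp57 and Tet1 led them, and 0 were higher (8.02%). The median log2 difference of the 13 was 0.04 against -0.20 over all genes. Of 7 genes of insulin-like growth factor signalling 5 were lower in E13.5 bulk cells (16.4%), led by Irs1 and Igf2bp2. In Klf1+ cells 4 of them were lowest (5.22%).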

How the data were processed

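Single-cell Smart-seq2 libraries of sorted mouse liver cells were analysed. The deposited values were raw read counts per gene and cell. According to the submitters' notes and the study's methods, the authors aligned reads with STAR 2.6.0c to GRCm38.p6 and counted uniquely aligned reads with Subread 1.6.2 (featureCounts) over an Ensembl annotation, and kept cells that passed their quality control. The strand and overlap settings are not given in the sources used here. Groups were taken from the labels. The 37 genes, the other gene lists and the rules were chosen with earlier results of these data known, and all listed genes are accounted for: those called were named with values, those at 0 only named, and from each other list at most 2 called genes a direction, by largest ratio. Reads were summed per set of cells and scaled to reads per 1000000 reads (RPM). A gene was called at a 2-fold difference with at least 5 RPM in 1 set and the same direction in every pool with at least 5 cells of both sets. A set with 0 reads was set at 3 reads. The labels do not tie cells to the study's replicate experiments, so each group was taken as 1 sample and no test was run. The rule was checked on simulated data. Overlap of gene spans was taken from GENCODE (GRCm38). Other marker limits, scalings, filters, folds and left-out pools were tried. Comparisons between pairs of lineages, the genes low in Klf1+ cells, the cells with no marker by stage, and the settings without Pf4 cells, without the top cell of each group, at E10.5 alone and per unshared exonic base were added after the data were seen. Python 3.11.15, numpy 2.4.6, pandas 2.3.3 and matplotlib 3.10.9 were used.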

Additional observations from a re-analysis of the deposited data

Results flagged for a closer look

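Plagl1 moved in opposite directions with stage in the sorts. The log2 ratio of E13.5 over E10.5 was -3.15 in bulk cells, lower in 5 of 5 pools, and 2.83 in Lgr5-GFP+ cells, higher in 5 of 5 pools. The difference between the sorts was not tested, since each group is 1 sample. In E13.5 bulk cells 93.4% of the Plagl1 reads came from 1 cell, and 1.26% of cells had more than 10 reads. Lineage makeup moved with both stage comparisons, and its part was not tested. Within Lgr5-GFP+ cells with no lineage marker the ratio was 2.72. Makeup moved with stage in these cells too. From E10.5 to E13.5 endothelial markers went from 106.1 to 998.9 RPM and mesenchyme markers from 1160 to 3179.7 RPM.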

How the results depend on the processing

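No called gene changed direction under any setting. Genes called under a setting only did so in 7 cases: by stage in Klf1+ cells Igf2r stood at -1.72 on the log2 scale, uncalled, and at 1.13, called higher, without pool 1, and the other 6 were without pools 3, 4 and 5. With more than 3 marker reads the genes lowest in Klf1+ cells were 11 in place of 17 and the Klf1+ sum was 1701 RPM in place of 884, and with more than 50 the genes high in Pdgfra+ cells were 0. With a mean over cells, the Pdgfra+ genes higher in Lgr5-GFP+ were 0. Without a filter on low values 6 genes were lower by stage in Klf1+ cells. At a fold of 4 the counts were 1 for high in Afp+ (Mirg), 0 for high in Pdgfra+, 1 for lower by stage in Lgr5-GFP+, and 0 for higher by sort at E10.5, in all and in Pdgfra+ cells. Without the demand on pools they were 2 for Pdgfra+, 2 higher and 4 lower by stage in Lgr5-GFP+, 2 higher by sort at E10.5, 6 lower by stage in Klf1+ and 3 higher by sort in Pdgfra+ cells. Without Igf2 and H19 the sums were 8205 RPM in Afp+ and 7077 RPM in Pdgfra+ cells.

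Without pools 3, 4 and 5 together 4 genes were high in Pdgfra+ and 2 in Pax3+ cells, and 4 of the 6 Afp+ genes kept their call (Grb10 and Meg3 lost it). By stage 1 was higher in bulk, 5 in Lgr5-GFP+ and 5 in Klf1+ cells, Meg3 lost its call in Lgr5-GFP+ cells, and Airn and Sgce lost theirs in Klf1+ cells. By sort 3 were higher and 1 lower at E10.5, 1 lower at E13.5, and 4 higher and 2 lower in Pdgfra+ cells. Without Pf4 cells 3 were high in Pdgfra+ (Plagl1 and Zim1 gained), 16 in place of 17 were low in Klf1+, 1 was higher by stage in bulk (Ube3a), where Grb10 became a lower call, and 0 by sort in Pdgfra+ cells (Trappc9 lost). By stage in Lgr5-GFP+ cells Airn took the place of Meg3. Among E10.5 cells alone 2 were high in Pdgfra+ and 1 in Pax3+ cells. Counting any cell with a read, 20, 11 and 22 genes were present in at least 50% of Afp+, Klf1+ and Pdgfra+ cells, against 12, 2 and 14 at more than 10 reads. Of the 6 neighbouring gene pairs 2 lay above the median correlation in E10.5 bulk Pdgfra+ cells, against 4 in all. Per unshared exonic base H19 ranked 2 in Pdgfra+ and Pax3+ cells. The causes of these shifts were not tested.

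With each pool left out in turn, counts ranged from 6 to 6 high in Afp+, 1 to 3 in Pdgfra+ (3 without pool 2), 0 to 1 in Pax3+ and 17 to 19 low in Klf1+ cells. By stage they ranged from 0 to 1 higher (Ube3a, without pool 3, 4 or 5) and 20 to 21 lower in bulk, 1 to 1 higher and 2 to 4 lower in Lgr5-GFP+ (4 without pool 2), and 0 to 1 higher and 2 to 4 lower in Klf1+ cells. By sort they were 1 to 3 higher (3 without pool 1) and 0 to 1 lower at E10.5, 19 to 20 higher at E13.5, and 1 to 2 higher in Pdgfra+ cells. Sums ranged from 9769 to 10097 RPM in Afp+, 746 to 943 in Klf1+, 7888 to 8364 in Pdgfra+ and 6174 to 7061 in Pax3+ cells. Meg3 lost its call by stage in Lgr5-GFP+ cells without pool 3 or pool 4. Trappc9 lost its call in Pdgfra+ cells without pool 2, and Slc22a18 took the place of Grb10 in Afp+ cells. No paired analysis was possible because the labels tie no cell to a replicate experiment, so each group was taken as 1 sample, and cell numbers only name cells. Median-of-ratios scaling, leaving out globin reads and thinning cells to 100000 reads changed no count by over 1.5 times. Snrpn and Slc22a18 stayed under 5 RPM in every lineage. Most exonic bases of Snrpn lay within the spans of other genes. The parts of overlap and depth in these low levels were not tested.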
